A study of Mus musculus with 6 samples.

Results

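Toll-like receptors are the germline-encoded sensors through which myeloid cells recognise microbial lipids, proteins and nucleic acids. The 10 genes described here are the surface receptors Tlr1, Tlr2, Tlr4, Tlr5 and Tlr6, the endosomal receptors Tlr7, Tlr8, Tlr9 and Tlr13, and the co-receptor Cd14. They were chosen by gene name from the 34745 genes of the count table, and all 10 were among the 12537 genes that had enough counts to be tested. RNAseq was performed on monocytic myeloid-derived suppressor cells (M-MDSCs), immature monocyte-like cells that restrain T cells, induced from bone marrow of C57BL/6 mice. Bone marrow cells of both groups were cultured with GM-CSF and IL-6 and sorted. The WT group carried intact mTOR, and the mTOR-/- group came from Lyz-mTOR mice, in which Cre recombinase driven from the lysozyme locus deletes floxed mTOR in myeloid cells. Each group had 3 libraries, numbered as replicates in the labels, and the age of the mice was not given in the sources used here.

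Of the 10 genes, only Cd14 changed at an adjusted p under 0.05, and it was 1.93-fold higher in mTOR-/- M-MDSCs. None of the 9 Toll-like receptor genes passed. Tlr8 was 2.03-fold higher and Tlr7 was at 0.597 of its WT level, and neither difference passed after adjustment. Tlr1, Tlr2, Tlr4 and Tlr6, the lipid-sensing receptors of the cell surface, differed by less than 1.2 times between the group means.

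Each Toll-like receptor has an outer domain of leucine-rich repeats that binds the ligand and an inner TIR domain that recruits adaptor proteins. Receptors of bacterial lipids and flagellin work at the cell surface, whereas receptors of RNA and DNA work in endosomes, where ligands arrive by uptake. CD14 has no signalling domain of its own. It captures lipopolysaccharide (LPS) and other ligands and hands them to TLR4 and TLR2, and it is a classical surface marker of monocytes and macrophages.

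Several of these genes are neighbours with related sequence, which matters for counting reads. Tlr6 (ENSMUSG00000051498, chromosome 5, 64952031 to 64960097) and Tlr1 (ENSMUSG00000044827, chromosome 5, 64924679 to 64933563) lie on the reverse strand with 18467 bases between them. Their coding sequences were identical at 75.6% of aligned bases in the GENCODE M21 transcripts of GRCm38, the build also called mm10. Each gene has all its coding bases in 1 exon, and 2 stretches of that exon are letter for letter the same in both genes and longer than a sequencing read of 150 bases. They are shown here because a read inside them cannot be assigned to either gene by its own sequence. No letters are capitalised because the whole of each is shared. The longer one has 229 bases and lies at chr5:64925537-64925765 in Tlr1 and chr5:64953828-64954056 in Tlr6, the other has 208 bases and lies at chr5:64925291-64925498 and chr5:64953582-64953789, and both are given 5′ to 3′ on the reverse strand.
Tlr1 and Tlr6, longer stretch: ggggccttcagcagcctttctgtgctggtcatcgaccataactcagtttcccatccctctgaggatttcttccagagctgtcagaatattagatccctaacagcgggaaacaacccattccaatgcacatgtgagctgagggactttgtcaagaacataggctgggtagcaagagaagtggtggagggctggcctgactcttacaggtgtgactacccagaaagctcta
Tlr1 and Tlr6, shorter stretch: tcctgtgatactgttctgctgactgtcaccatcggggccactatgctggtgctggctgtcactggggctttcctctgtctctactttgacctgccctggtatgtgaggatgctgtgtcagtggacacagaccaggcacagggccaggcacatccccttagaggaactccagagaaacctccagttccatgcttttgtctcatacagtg
Between them lie 38 bases in each gene, of which 2 differ. As a result 139 of the 2876 possible 150-base stretches of the Tlr1 transcript, or 4.83%, are also in Tlr6, and 3.94% of those of Tlr6 are also in Tlr1. The main transcripts of the other 8 genes shared no 150-base stretch with any other gene. The study sequenced reads in pairs, so a mate outside the shared part can assign its pair to 1 gene. The shares of 4.83% and 3.94% count single stretches and leave pairs out. How the counting treated reads in the shared part is not given in the sources used here, so the counts of Tlr1 and Tlr6 carry that uncertainty. No other annotated gene overlapped any of the 10.

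Read counts of each gene were deposited unscaled. Library totals were 12317507 to 12903191 counts in the mTOR-/- group and 14066578 to 14768126 in the WT group. Counts were scaled to CPM, the counts in every 1000000 counts of a library, with TMM factors, and 3 counts, taken as the detection floor, corresponded to 0.2049 to 0.2445 CPM. This floor covers counting error only, since PCR copies of a molecule are counted as separate reads, whereas the intervals given with fold changes include the spread between libraries. Mtor, the targeted gene, was not lower in the libraries labelled mTOR-/- (log2 fold change 0.15, SE 0.11, adjusted p = 0.442, edgeR), so its count was no check of the labels, and the directions given here rest on the labels. The counts are of the whole gene, so they cannot show whether the floxed part was lost. The paper reports that it verified mTOR depletion in its MDSCs separately. Lyz2, the lysozyme gene whose promoter drives Cre, fell by 1.68 on the log2 scale (SE 0.20, adjusted p = 0.00255, edgeR). The part of the Cre allele in this fall was not tested. All 6 monocytic markers (Itgam, Ly6c2, Csf1r, Ccr2, Fcgr1 and Spi1) were counted in every library, with summed levels of 1810 to 1920 CPM in the mTOR-/- group and 1850 to 2040 CPM in the WT group. Of these, Csf1r rose by 0.50 and Ly6c2 fell by 1.00 on the log2 scale (adjusted p = 0.0136 and 0.0426, edgeR). The T cell markers Cd3e, Cd4 and Cd8a and the NK cell marker Ncr1 were at 0 in every library, and the summed B cell markers stayed at 7.19 CPM or less. The T cell marker Cd3d had 3, 0 and 0 counts in mTOR-/- and 1, 1 and 0 in WT. The other NK cell markers were counted. Klrb1c had 0 counts in each mTOR-/- library and 9, 11 and 7 in WT, and Nkg7 had 9, 49 and 17 counts against 53, 20 and 36. The labels do not say which mice gave which library, so p-values measure the spread between these libraries.

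Differences were tested over all 12537 genes with edgeR's quasi-likelihood test, and p-values were adjusted over all of them by the Benjamini-Hochberg method. By the study's threshold, an adjusted p under 0.05 with a change of at least 2-fold, 0 of the 10 genes were called, against a background of 1.69% of all tested genes (1.04% higher and 0.654% lower in mTOR-/-). DESeq2 likewise called 0 of the 10. Without the fold criterion 1 of the 10 passed, Cd14, against a background of 4.04% (2.18% higher and 1.87% lower). At an unadjusted p under 0.05, 2 of the 10 passed, Cd14 and Tlr8, beside 21.2% of all tested genes. Of the 10 genes 3 were higher and 7 lower in mTOR-/-, with a median log2 fold change of -0.131, beside 0.005 for all tested genes. In 2 of the 10, again Cd14 and Tlr8, the groups did not overlap, which was also the case for 28.4% of all tested genes.

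**Figure D1:**
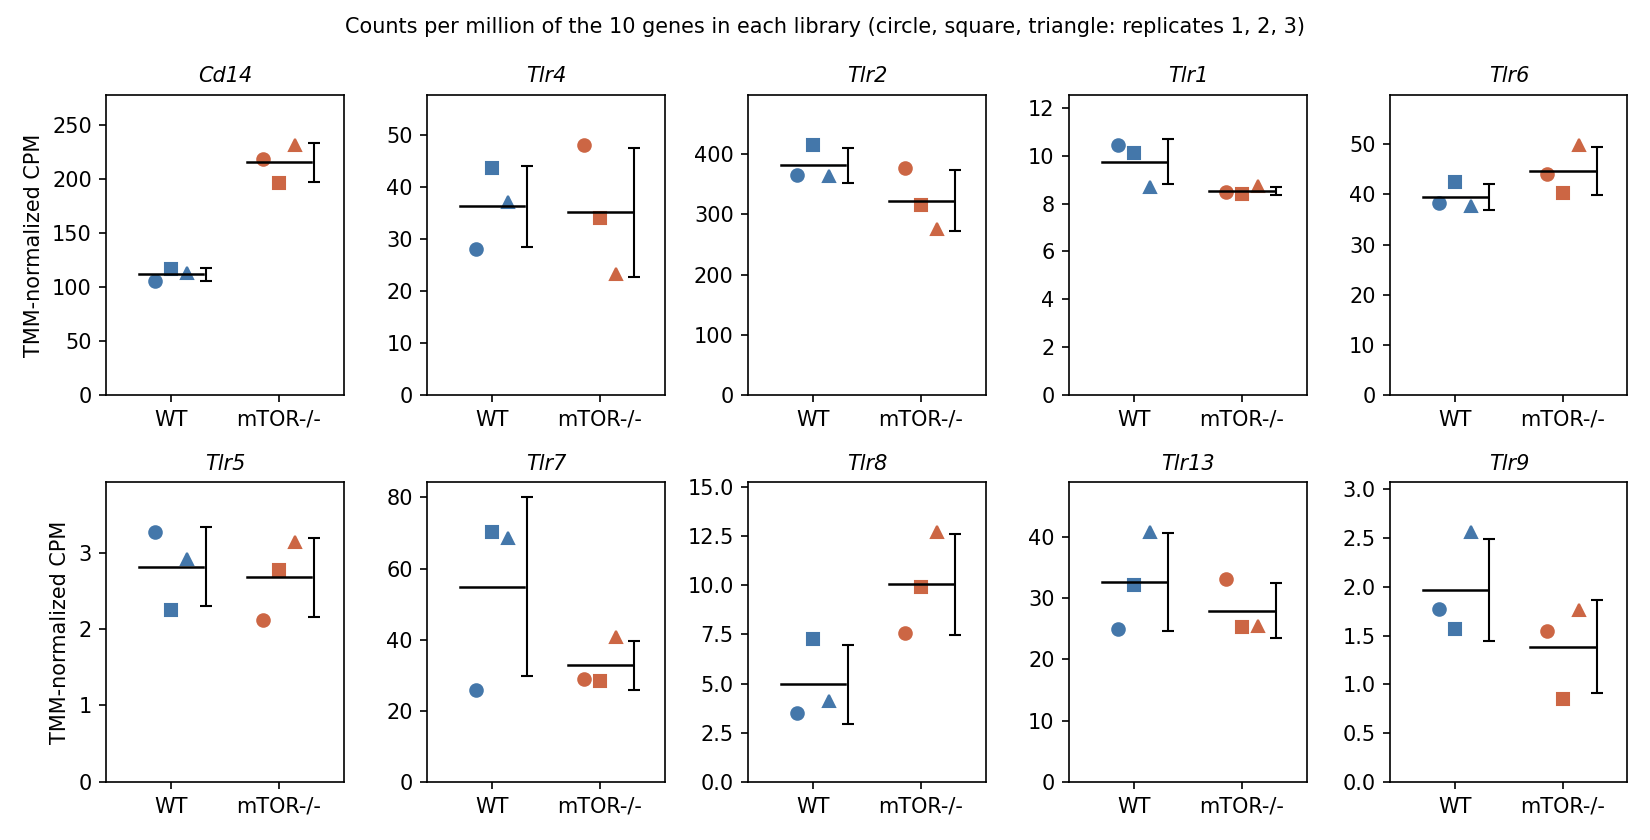
TMM-normalized CPM of each of the 10 genes (vertical axis, from 0) in the WT and mTOR-/- libraries, with circles, squares and triangles for replicates 1, 2 and 3, horizontal lines for group means and bars for the SD (n = 3). Every mTOR-/- library lies above every WT library for Cd14 and Tlr8, and WT replicate 1 lies far below the other WT libraries for Tlr7.

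Cd14 (ENSMUSG00000051439, chromosome 18, 36725074 to 36726736, reverse strand) had 219, 197 and 232 CPM in mTOR-/- replicates 1, 2 and 3 and 105.5, 117 and 113 CPM in the WT replicates. The lowest mTOR-/- library was thus well above the highest WT library, and libraries of a group were close to each other. Group means were 216 ± 17.9 CPM (SD, n = 3) and 112 ± 5.86 CPM (SD, n = 3). The log2 fold change was 0.95 (SE 0.10, 95% interval 0.73 to 1.17, adjusted p = 0.00128, edgeR), so the interval included the 2-fold change of the study's threshold. By unadjusted p Cd14 ranked 32 among the tested genes. It passed the adjusted threshold in each of the 6 fits that left out 1 library, with log2 fold changes of 0.89 to 1.00, and without mTOR-/- replicate 2 it reached 2-fold (log2 fold change 1.00, adjusted p = 0.0032, edgeR). In RNA from a whole cell preparation, more Cd14 RNA per cell and more cells that express Cd14 cannot be told apart. Markers of other cell types moved between the same groups. The summed dendritic cell markers were 194 to 266 CPM in mTOR-/- and 68.4 to 158 CPM in WT, and most of this sum was Itgax (128 to 197 against 52.0 to 117 CPM). Of the 5 dendritic cell markers tested, 1 passed, Ccr7, while Flt3 and Clec9a had lower estimates in mTOR-/- (log2 fold changes -0.46 and -0.39), and Siglech was at 0 in every library. The summed macrophage markers were 536 to 658 CPM in mTOR-/- and 662 to 745 CPM in WT, lower without overlap. Most of this sum was Adgre1 (402 to 533 against 564 to 643 CPM). Vcam1 was higher in every mTOR-/- library (116 to 132 against 69.4 to 99.6 CPM). Mertk and C1qb had higher and Mrc1 lower estimates (log2 fold changes 1.00, 0.04 and -0.85), and 0 of the 5 tested passed. Summed granulocyte markers overlapped between the groups (918 to 1090 against 865 to 1180 CPM), although Ly6g and S100a8 rose and Ltf and Ngp fell. The study defines M-MDSCs as negative for Ly6G, and a sort by that definition would remove granulocytes, but the gates used for these libraries are not given in the sources used here. Ly6g had 173, 139 and 198 counts in mTOR-/- and 12, 35 and 71 counts in WT. The summed mast cell and basophil markers were 134 to 189 CPM in mTOR-/- and 677 to 839 CPM in WT. Most of this sum was Cpa3 (111 to 154 against 632 to 769 CPM). Cpa3 and Mcpt8 passed, both lower (adjusted p = 9.53e-05 and 0.0353, edgeR). Ms4a2 had a lower and Fcer1a a higher estimate (log2 fold changes -0.65 and 0.45), and neither passed. The part of these cells in the Cd14 difference was not tested.

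Tlr4 (ENSMUSG00000039005, chromosome 4, 66827584 to 66930284) encodes the LPS receptor that CD14 serves. It had 48.0, 34.0 and 23.3 CPM in the mTOR-/- replicates and 28.1, 43.6 and 37.0 CPM in the WT replicates. The groups overlapped over most of their range, and the highest and the lowest library were both mTOR-/-. The log2 fold change was -0.05 (SE 0.26, 95% interval -0.63 to 0.53, adjusted p = 0.939, edgeR), and its sign turned to 0.17 without mTOR-/- replicate 3. Ly96, which encodes MD-2, the protein that holds LPS against TLR4, had 52, 87 and 5 counts in mTOR-/- and 55, 71 and 95 counts in WT. The 5 counts of mTOR-/- replicate 3, the library that was also lowest for Tlr4, stood apart from all others, and the groups overlapped (adjusted p = 0.754, edgeR). That library also had the fewest genes with a count, 13889, beside 14709 to 15120 in the others. The part of this in its Tlr4 and Ly96 values was not tested. Lbp, the serum protein that loads LPS onto CD14, was at 22.4 ± 4.89 CPM in mTOR-/- and 19.0 ± 5.06 CPM in WT (SD, n = 3, adjusted p = 0.594, edgeR). Per base of exon, Cd14 was 14.6, 18.6 and 32 times Tlr4 in the mTOR-/- libraries and 12.1, 8.61 and 9.79 times Tlr4 in the WT libraries. These ratios, chosen after the values were seen, did not overlap (two-sided exact permutation test, p = 0.1, below which 3 against 3 libraries cannot go).

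Tlr2 (ENSMUSG00000027995, chromosome 3, 83836272 to 83841767) pairs with TLR1 or TLR6 to bind bacterial lipoproteins. It was the Toll-like receptor gene with the most counts, at 377, 316 and 275 CPM in the mTOR-/- replicates and 366, 416 and 363 CPM in the WT replicates. One mTOR-/- library lay among the WT libraries and the other two below them. The log2 fold change was -0.24 (SE 0.12, 95% interval -0.52 to 0.04, adjusted p = 0.298, edgeR). Cd14 relative to Tlr2, per base of exon, was 1.19 ± 0.245 in mTOR-/- and 0.511 ± 0.0272 in WT (SD, n = 3), without overlap. In mTOR-/- replicate 1 the genes were nearly level (ratio 1.01). This ratio was also chosen after the values were seen. Tlr2 relative to Tlr6 did not overlap between the groups either, whereas Tlr2 relative to Tlr1 did (two-sided exact permutation test, p = 0.1 and 0.7). How often ratios of other gene pairs overlap was not tested.

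Of the partners of Tlr2, Tlr1 had 8.48, 8.41 and 8.72 CPM in mTOR-/- and 10.4, 10.1 and 8.69 CPM in WT. The mTOR-/- libraries were nearly identical, and the third WT library fell among them (log2 fold change -0.19, SE 0.20, adjusted p = 0.616, edgeR). Tlr6 had 44.0, 40.3 and 49.9 CPM in mTOR-/- and 38.3, 42.5 and 37.6 CPM in WT. Its groups also overlapped (log2 fold change 0.18, SE 0.13, 95% interval -0.11 to 0.47, adjusted p = 0.455, edgeR). Per base of exon Tlr6 exceeded Tlr1 in all 6 libraries, by 4.30 to 5.13 times in mTOR-/- and 3.29 to 3.89 times in WT. This ratio, also chosen after the values were seen, did not overlap between groups (two-sided exact permutation test, p = 0.1), and both its genes hold the shared stretches printed above. Tlr5 (ENSMUSG00000079164, chromosome 1, 182954788 to 182976044), the flagellin receptor, had 26, 36 and 41 counts in mTOR-/- and 46, 33 and 41 counts in WT. Both groups covered the same range, and at this depth the 95% interval of the log2 fold change ran from -0.94 to 0.81 (adjusted p = 0.941, edgeR). The median log2 fold change of the 5 surface receptors was -0.07.

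Among the endosomal receptors, Tlr7 (ENSMUSG00000044583, 167304929 to 167330558) and Tlr8 (ENSMUSG00000040522, 167242696 to 167264329), both sensors of RNA fragments, are neighbours on the reverse strand of chromosome X with 40599 bases between them. Their longest shared coding run had 13 bases, and they differed between the groups in opposite directions. Tlr7 had 28.9, 28.5 and 40.9 CPM in mTOR-/- and 25.8, 70.3 and 68.5 CPM in WT. WT replicate 1 was the lowest of all libraries and the other WT libraries were the highest. The log2 fold change was -0.74 (SE 0.33, 95% interval -1.49 to 0.00, adjusted p = 0.237, edgeR). It depended on that library: without WT replicate 1 it was -1.09 (SE 0.18, adjusted p = 0.0273, edgeR), past both thresholds, while the other 5 fits that left out 1 library gave adjusted p up to 0.549. WT replicate 1 also had the lowest summed dendritic cell markers, 68.4 CPM, beside 158 and 147 CPM in WT replicates 2 and 3, and the part of this difference in the Tlr7 value was not tested. Tlr8 had 93, 128 and 166 counts in mTOR-/- and 49, 106 and 58 counts in WT, or 7.58, 9.88 and 12.7 CPM against 3.48, 7.24 and 4.13 CPM. Every mTOR-/- library was above every WT library, but the nearest libraries of the groups were close. The log2 fold change was 1.02 (SE 0.33, 95% interval 0.28 to 1.76, adjusted p = 0.125, edgeR), and leaving out single libraries moved it between 0.81 and 1.40 without passing the threshold. With DESeq2 the same change fell just short of the threshold (adjusted p = 0.0529, DESeq2 Wald test).

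The balance of both genes was compared after their values were seen, so its test adds no evidence. Per base of exon the level of Tlr8 relative to Tlr7 was 0.298, 0.395 and 0.354 in mTOR-/- and 0.154, 0.117 and 0.0686 in WT. The lowest mTOR-/- ratio was above the highest WT ratio, WT replicate 1 included (two-sided exact permutation test, p = 0.1). Since Tlr7, Tlr8 and Tlr13 are X-linked, the sex of the mice, which the labels do not give, can bear on their counts. Every library held many counts of Xist, which is transcribed from the inactive X of females, and of Y-linked genes, so each held both kinds of RNA. Xist had 17397, 18042 and 29393 counts in mTOR-/- and 16944, 12680 and 11521 counts in WT (log2 fold change 0.81, adjusted p = 0.0678, edgeR). Of the 4 Y-linked genes counted, Eif2s3y was higher in mTOR-/-, at 64.5 to 81.9 CPM against 45.0 to 47.9 CPM in WT, without overlap (log2 fold change 0.62, adjusted p = 0.0257, edgeR). Ddx3y, Kdm5d and Uty overlapped between the groups and did not pass (log2 fold changes 0.22, 0.36 and -0.02). The part of this mixture in the values of the X-linked receptors was not tested.

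Tlr13 (ENSMUSG00000033777, X, 106143204 to 106160493), a sensor of bacterial ribosomal RNA found in mice but not in humans, had 33.2, 25.3 and 25.4 CPM in mTOR-/- and 24.9, 32.2 and 40.8 CPM in WT. The lowest WT library was below all mTOR-/- libraries, and the log2 fold change was -0.22 (SE 0.20, adjusted p = 0.555, edgeR). Tlr9 (ENSMUSG00000045322, chromosome 9, 106222598 to 106226883), the receptor of unmethylated CpG DNA, was near the limit of this depth, with 19, 11 and 23 counts in mTOR-/- and 25, 23 and 36 counts in WT. Its 95% interval, from -1.65 to 0.64 on the log2 scale, included a decrease of more than 2-fold (adjusted p = 0.607, edgeR). The median log2 fold change of the 4 endosomal receptors was -0.364. For 6 of the 9 receptors, all but Tlr7, Tlr8 and Tlr9, the 95% interval lay inside a 2-fold change in either direction.

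**Figure D2:**
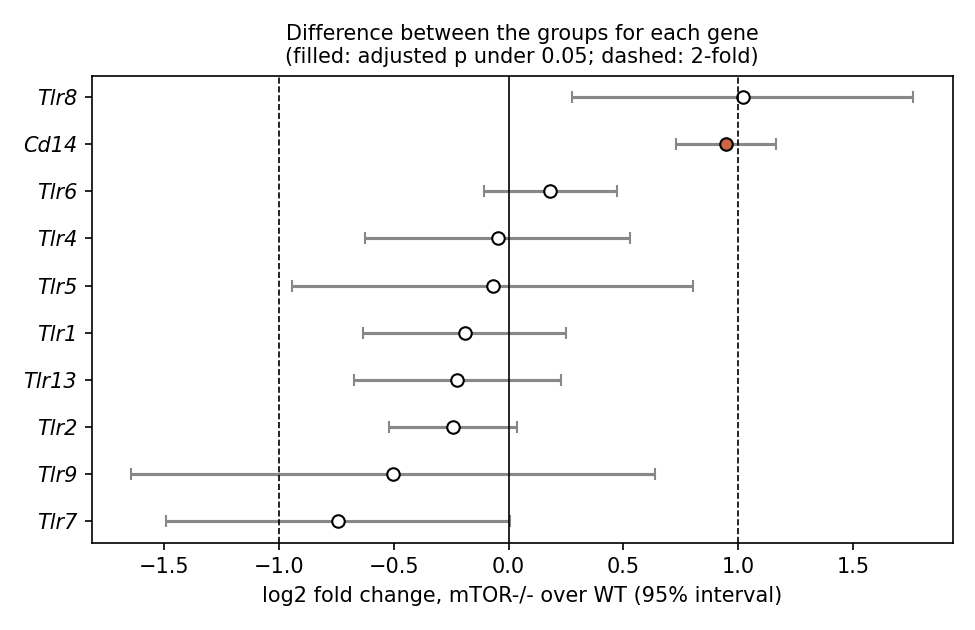
Log2 fold change of each gene, mTOR-/- over WT (horizontal axis), with its 95% interval from the edgeR fit, dashed lines at a 2-fold change and a filled point for an adjusted p under 0.05. Only Cd14 is filled, with a short interval from 0.73 to 1.17, while Tlr8 has a similar estimate and an interval from 0.28 to 1.76.

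To compare the levels of different genes, counts were set against gene length. The deposited FPKM values ordered the genes, by their mean over the 6 libraries, as Tlr2 (117), Cd14 (104), Tlr6 (10.2), Tlr13 (7.23), Tlr4 (5.26), Tlr7 (3.79), Tlr1 (1.48), Tlr8 (0.963), Tlr9 (0.481) and Tlr5 (0.257). The gene lengths behind these FPKM values, recovered from the counts, were equal to the merged exons for Tlr2 and Tlr9, which have 1 annotated transcript, but 2.82 times the merged exons for Tlr7, with 6 transcripts, and 2.23 times for Tlr5, with 5. Tlr8 and Tlr1, at 2.18 and 1.84 times, also had lower values by deposited FPKM, but kept ranks 8 and 7 on both scales. In counts per kilobase of merged exons and 1000000 library counts, without TMM factors, Tlr7 moved up to rank 4, with a mean of 10.7, and Tlr5 (0.573) passed Tlr9 (0.481), so that 5 of the 10 genes kept their rank.

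On this scale the genes fell into levels of abundance. Tlr2 and Cd14 were far above the rest in every library, and no library of any other gene overlapped them. Tlr2 was above Cd14 in 3 of 6 libraries: Cd14 was at 125 ± 10.6 in mTOR-/- and 64.1 ± 3.04 in WT, and Tlr2 at 108 ± 16.1 and 126 ± 9.63 (SD, n = 3). Tlr2 had more than Cd14 in each WT library and less in each mTOR-/- library. In mTOR-/- replicate 1 the difference was small, with Cd14 at 1.01 times Tlr2. Tlr6, Tlr7, Tlr13 and Tlr4 followed with means of 11.3, 10.7, 7.02 and 6.40, and each overlapped the next in its range over libraries. Tlr1 and Tlr8 formed the next level (2.73 and 2.10) and overlapped each other, and Tlr5 and Tlr9 were lowest and also overlapped. By deposited FPKM, Tlr2 supplied 75.9 to 80.0% of the summed level of the 9 receptors in mTOR-/- and 78.4 to 83.2% in WT. On merged exons its share was lower, at 69.1 to 75.4% in mTOR-/- and 71.5 to 78.8% in WT, and the groups overlapped on both scales.

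**Figure D3:**
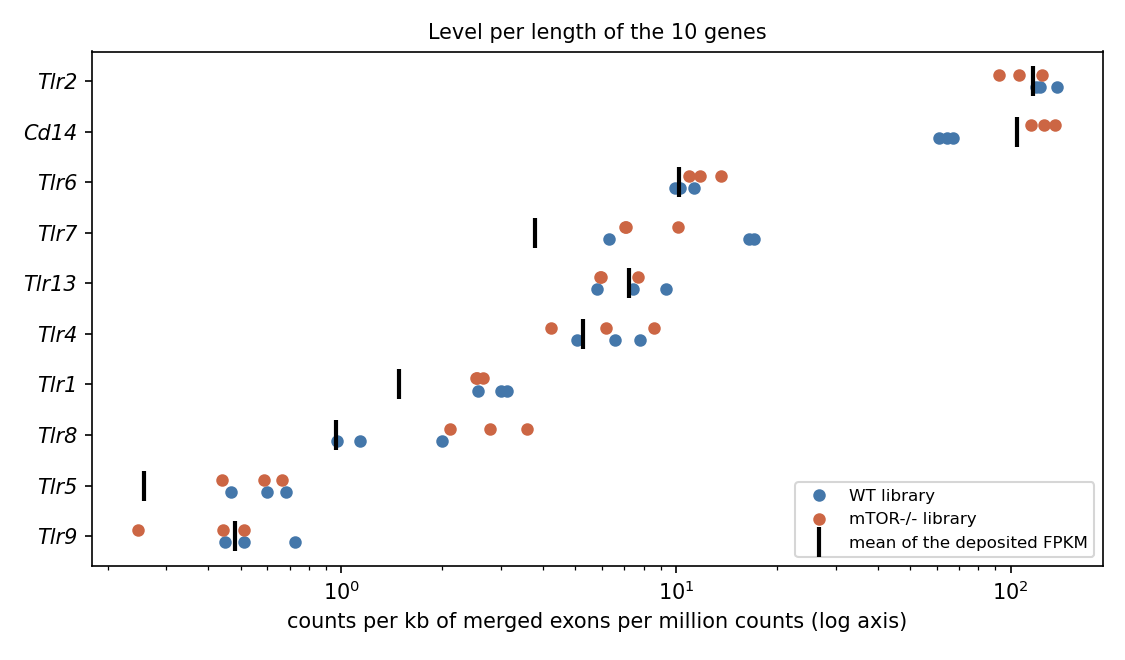
Level of each gene per kilobase of merged exons and 1000000 library counts (log axis) in the WT (blue) and mTOR-/- (orange) libraries, with a black tick for the mean of the deposited FPKM. The groups of Cd14 and Tlr8 do not overlap, and the ticks of Tlr7, Tlr5 and Tlr1 lie left of all their points, since the deposited values use longer gene lengths.

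The remaining mouse receptor genes were too low to test. Tlr11 was at 0 in all 6 libraries, Tlr3, a receptor of viral RNA, had at most 9 counts, and Tlr12 had 6, 22 and 0 counts in mTOR-/- and 0, 1 and 4 in WT. Of the 14 genes for ligand delivery, co-receptors and chaperones, 0 were higher and 2 lower at an adjusted p under 0.05 (background 2.18% and 1.87%), and the median log2 fold change was -0.064. Both that fell, Lgmn and Ctsb, encode lysosomal proteases that trim endosomal receptors. Lgmn was at 114 ± 8.26 CPM in mTOR-/- and 182 ± 11.1 CPM in WT (SD, n = 3, log2 fold change -0.67, adjusted p = 0.00628, edgeR). Ctsb fell by 0.68 on the log2 scale (adjusted p = 0.0183, edgeR), a call lost when any of the WT libraries was left out (adjusted p up to 0.102). Unc93b1, which carries the nucleic acid sensors from the endoplasmic reticulum to endosomes, was at 530 ± 64.3 CPM in mTOR-/- and 416 ± 1.43 CPM in WT (SD, n = 3). Its groups did not overlap, and it did not pass the threshold (adjusted p = 0.100, edgeR). Cd180, a receptor relative of TLR4 that lacks the TIR domain, had 48, 29 and 65 counts in mTOR-/- and 88, 112 and 120 counts in WT (log2 fold change -1.01, adjusted p = 0.132, edgeR).

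Downstream of the receptors, 1 of 21 tested adaptors and kinases, 1 of 11 transcription factors and 3 of 17 inhibitors passed the adjusted p, beside the background of 4.04%. The adaptor Myd88, used by all Toll-like receptors except Tlr3, was at 54.8 ± 2.53 CPM in mTOR-/- and 52.4 ± 1.34 CPM in WT (SD, n = 3, adjusted p = 0.759, edgeR). Ikbke, a kinase that activates interferon regulatory factors, was higher in mTOR-/- (log2 fold change 0.84, adjusted p = 0.0444, edgeR), and its call was kept in only 1 of the 6 fits that left out 1 library (adjusted p up to 0.17). Jun, a subunit of AP-1, was higher by 0.66 on the log2 scale (adjusted p = 0.0161, edgeR), a call lost without any of the WT libraries (adjusted p up to 0.0989). The median log2 fold change of the transcription factors was 0.188, and that of the adaptors and kinases 0.035. Among the inhibitors, Nfkbia, which encodes the IκBα protein that holds NF-κB in the cytoplasm, rose from 153 ± 11.2 to 263 ± 34.4 CPM (SD, n = 3, log2 fold change 0.78, adjusted p = 0.00692, edgeR). Tnip3, which restrains NF-κB, was higher (log2 fold change 1.38, adjusted p = 0.0259, edgeR) and Il1rl1, the IL-33 receptor, lower (-1.14, adjusted p = 0.0477, edgeR), and both lost the call in at least 4 of the 6 fits that left out 1 library.

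Of 21 tested genes that Toll-like receptor signalling can induce, 3 were higher and 4 lower at an adjusted p under 0.05 (background 2.18% and 1.87%), and 14 did not pass. The higher genes were Cxcl10, an interferon-induced chemokine (log2 fold change 2.57, adjusted p = 0.0243, edgeR), the cytokine gene Il1b (1.29, adjusted p = 0.029) and the prostaglandin synthase gene Ptgs2 (0.56, adjusted p = 0.0464). The lower genes were Nos2, the inducible nitric oxide synthase, and the chemokine genes Ccl2, Ccl4 and Ccl7. Nos2 had 5, 15 and 13 counts in mTOR-/- and 127, 120 and 128 counts in WT (log2 fold change -3.34, adjusted p = 0.00255, edgeR). Ccl7 had 2, 1 and 5 counts in mTOR-/- and 17, 37 and 32 counts in WT (adjusted p = 0.0399, edgeR). Ccl2 fell by 1.62 and Ccl4 by 0.72 on the log2 scale (adjusted p = 0.0176 and 0.0324, edgeR). Tnf and Il6, cytokines of the same response, differed by -0.09 and 0.23 on the log2 scale and did not pass (adjusted p = 0.662 and 0.352, edgeR). Induced genes thus moved in both directions, with a median log2 fold change of 0.132. Over all the lists, 14 of 84 tested genes passed, or 16.7% beside the background of 4.04%, 7 in each direction. The lists were chosen with earlier results of these data known, so the higher share cannot be read as an enrichment. Of the 14 genes, 3 passed in every fit that left out 1 library, Lgmn, Nfkbia and Nos2. Each of the others lost the call without WT replicate 1 and without WT replicate 2, among other fits (adjusted p up to 0.2, edgeR). DESeq2 gave an adjusted p under 0.05 for all 14, and the fit with the replicate number as a block for 5.

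**Figure D4:**
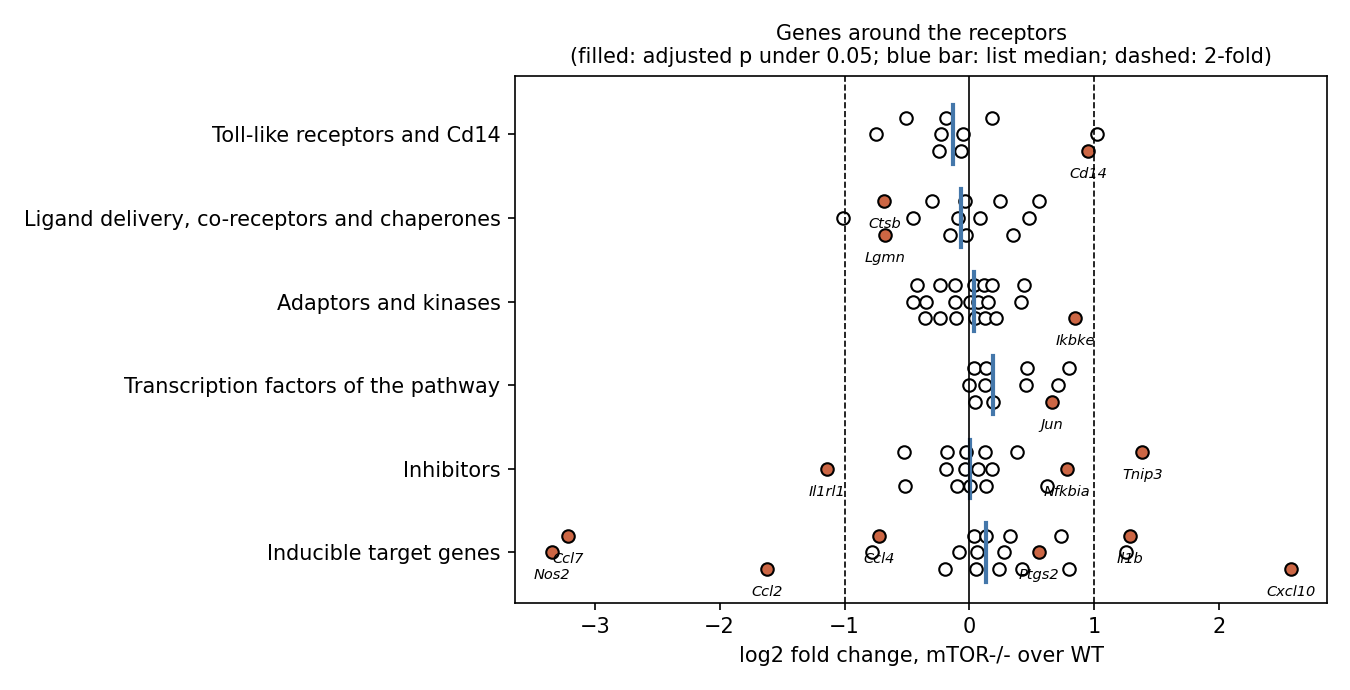
Log2 fold change, mTOR-/- over WT (horizontal axis), of every tested gene in the receptor set and in 5 lists of the pathway, with filled points for an adjusted p under 0.05 and blue bars for the medians. The receptors other than Cd14 are all unfilled, and the inducible targets spread furthest, from Nos2 at -3.34 to Cxcl10 at 2.57.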

How the data were processed

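RNAseq counts of 3 mTOR-/- and 3 WT libraries were used as deposited. According to the methods of the study, the authors aligned reads to mm10 with Bowtie2 and obtained the deposited whole-number counts with HTSeq, whereas the submitters' processing notes name HISAT2 2.0.4 and StringTie 1.3.0. The strand setting and annotation release are not given in the sources used here. The authors also deposited FPKM values, used for the order of levels and the share of Tlr2 in the receptors' summed level. The other 24 per-sample columns repeat these values, and the fold changes and p-values of the authors' own comparison were not used.

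Genes were kept by edgeR's filterByExpr (minimum count 10, minimum total 15), scaled by TMM and compared with edgeR 4.0.16 (R 4.3.3) in a quasi-likelihood test without a block, with Benjamini-Hochberg adjustment over 12537 genes. DESeq2 1.42.0, other normalizations and filters, single libraries left out and the replicate block were alternatives. The procedure was also run on simulated counts, drawn with the dispersions fitted to these data. That run checks the code and cannot show whether the calls in these libraries hold. The 10 genes, the pathway lists and the markers were chosen with earlier results of these data known. Named genes were the 10 genes, the list genes past the threshold and examples with small p, and others are background examples chosen after their values were seen. Positions come from the deposited table, and 9 of 10 are those of GENCODE M21.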

Additional observations from a re-analysis of the deposited data

How the results depend on the processing

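Cd14 kept its direction and passed the adjusted threshold under all alternatives, with log2 fold changes of 0.93 to 0.95 apart from the fits that left out 1 library. None of the 10 genes was called at 2-fold, but 1 was without the fold threshold (Cd14) and 0 to 1 in the fits that left out 1 library (Cd14 without mTOR-/- replicate 2, Tlr7 without WT replicate 1). Over all tested genes, 212 were called, 507 without the fold threshold, 357 with DESeq2 and 114 to 229 with 1 library left out. Dropping the fold threshold can only add calls. The cause of the other differences was not tested, and the fits with 1 library left out also had fewer samples. Leaving out 1 library reversed Tlr4 (-0.343 to 0.171; 0.171 without mTOR-/- replicate 3 and 0.105 without WT replicate 2) and Tlr5 (-0.21 to 0.069; 0.069 without mTOR-/- replicate 1 and 0.043 without WT replicate 1), neither of which passed in any fit. With merged exon lengths 5 of 10 genes kept their rank by level. Libraries with the same replicate number did not deviate together (correlations -0.0764, -0.0252 and -0.0608 over genes). Libraries with different numbers gave 0.000748 to 0.058. Correlations over all genes cannot show whether libraries shared a batch that acted on some genes, and the labels do not say what the number stands for. With a replicate block, 164 genes were called, 0 of the 10 at 2-fold, and Cd14 was at 0.95 (adjusted p = 0.00684, edgeR). Tlr5 and Tlr9, with 11 to 46 counts, are limited by depth.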

Other observations

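By a rule on likeness, the 3 genes with at least 50 mean counts whose log2 CPM followed Cd14 most closely over the 6 libraries were Asb13, Nod1 and Ugt1a6b (Pearson r 0.998, 0.997 and 0.997). Nod1, a cytosolic sensor of bacterial peptidoglycan, had 281, 251 and 374 counts in mTOR-/- and 97, 120 and 112 counts in WT. A correlation above 0.9 with Cd14 was reached by 514 of 10620 genes compared, which all share the same 6 libraries. For Tlr5, the receptor with the largest p, the closest genes were Ptch1, Cdca3 and Ube2j2 (Pearson r 0.994, 0.985 and 0.983), and 58 genes were above 0.9.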
